A study of Mus musculus with 18 samples.

Results

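mRNA abundance was compared between MIN6 cells exposed to 200 µM cyclopiazonic acid (CPA) for 18 h, named CPA18, and control cells that received DMSO for 18 h (0 µM CPA). MIN6 is a mouse insulinoma line that makes and secretes insulin, so every library comes from 1 transformed cell line and not from islets. All groups were grown in the same high-glucose medium. The comparison rests on 6 mRNA-seq libraries, 3 of CPA18 and 3 of the control, out of 18 libraries in the series, and was chosen by the treatment and assay in the labels. The replicate numbers 1 to 3 stand for independent experiments, each with its own control and CPA18 culture. Poly(A) RNA was fragmented in alkaline buffer, and the short fragments were sequenced and counted on RefSeq transcripts, which were summed here to genes. Of 17207 genes listed, the 10125 with at least 1 read in each of the 9 mRNA-seq libraries were tested. The 3 libraries taken after 1 h of CPA (CPA1) entered the fit to share its estimate of the spread, and their levels are given only for reference.

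CPA blocks SERCA, the pump that moves calcium from the cytosol into the endoplasmic reticulum (ER), and chaperones that need calcium then fail to fold their clients. The unfolded protein response (UPR) reads this through the ER membrane sensors PERK, IRE1 and ATF6. PERK phosphorylates the translation factor eIF2α, which slows protein synthesis and raises the transcription factor ATF4. IRE1 splices the Xbp1 mRNA, and ATF6 is cut in the Golgi to free a transcription factor that acts on chaperone genes. Pancreatic β-cells carry a heavy folding load because proinsulin makes up much of what they synthesise. Transcription factors such as PDX1, MAFA, NKX6-1 and NEUROD1 hold the β-cell gene programme in place.

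Control libraries held 520960 to 2408123 counted reads and CPA18 libraries 1241570 to 4755030, and the median count of a tested gene was 20 in the control and 43 in CPA18. Experiment 1 stood apart from the others. Reads on Lars2, the gene of the mitochondrial leucyl-tRNA synthetase, took 45.1% of its control library and 54.8% of its CPA18 library, against 4.75 to 15.1% in the other 4. Its control library correlated with the other control libraries with a Spearman rho of 0.841 to 0.845 over 7794 genes, against 0.954 between the other two. The control library of experiment 2 has a title that names mRNA-seq and a description that names Ribo-seq. It correlated with the other mRNA-seq controls with a rho of 0.845 to 0.954 and with the Ribo-seq controls with a rho of 0.769 to 0.789. Such correlations did not separate the assays for every library. The control mRNA-seq library of experiment 1 had a rho of 0.8355 to 0.8587 with the Ribo-seq controls. This range includes its rho with the other mRNA-seq controls. Levels are therefore given for each library, as counts per 1000000 reads after trimmed-mean (TMM) scaling, called CPM below, and the fit was repeated 9 times, each time without 1 experiment, 1 control library or 1 CPA18 library.

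After 18 h of CPA, most tested regulators of the UPR (15 of 23), genes of amino acid supply (22 of 38) and aminoacyl-tRNA synthetases (17 of 24) were called higher. Most β-cell transcription factors (20 of 33) and genes of insulin and granule proteins (20 of 30) were called lower. Of the genes of glucose sensing, 25 of 46 were called lower, but only 15 with scaling to library totals. Lists of ER protein handling held more higher than lower calls, and those of exocytosis and the lysosome more lower than higher calls, but many of their members were not called. At an adjusted p under 0.05 in edgeR's quasi-likelihood test with the experiment as a block, 2797 of the 10125 genes were called, which is 27.6%. Of these, 1177 (11.6% of the genes tested) were higher in CPA18 and 1620 (16%) were lower. The change was over 1 on the log2 scale for 596 of the higher genes and under -1 for 1200 of the lower ones, and it passed 2 and -2 for 88 and 318. The median log2 fold change of all genes tested was -0.10 with TMM scaling. With scaling to library totals the median was 0.30, and 1998 genes (19.7%) were called higher and 757 (7.48%) lower. All 1177 genes called higher with TMM were also called higher with library totals, 755 of the 1620 lower genes stayed lower, and none turned around in direction. The split of calls therefore moved from 42.1% higher with TMM to 72.5% higher with library totals.

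The calls depend on comparing within experiments. Without the experiment as a block, 114 genes (1.13%) were called higher and 155 (1.53%) lower, and the biological coefficient of variation rose from 0.205 to 0.403. In 26.9% of the genes tested CPA18 was above its own control in all 3 experiments, and in 30.6% it was below in all 3. Of the called genes, 1166 of the 1177 higher and 1573 of the 1620 lower ones moved the same way in all 3. A stricter view asks whether the groups overlap at all. Every CPA18 library was above every control library for 11.3% of all genes tested and below for 11%. This held for 772 (65.6%) of the genes called higher and 813 (50.2%) of those called lower. Both views of the called genes use the libraries that gave the calls, so neither is separate support for them. In such bulk libraries, fewer cells of a kind and less RNA per cell cannot be told apart. Without experiment 1, 624 genes were called higher and 773 lower, and without experiment 2, whose control has the unmatched description, 821 and 1006. Without the CPA18 library of experiment 2, the deepest, 495 were called higher and 601 lower, and without that of experiment 1 it was 934 and 951.

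**Figure D1:**
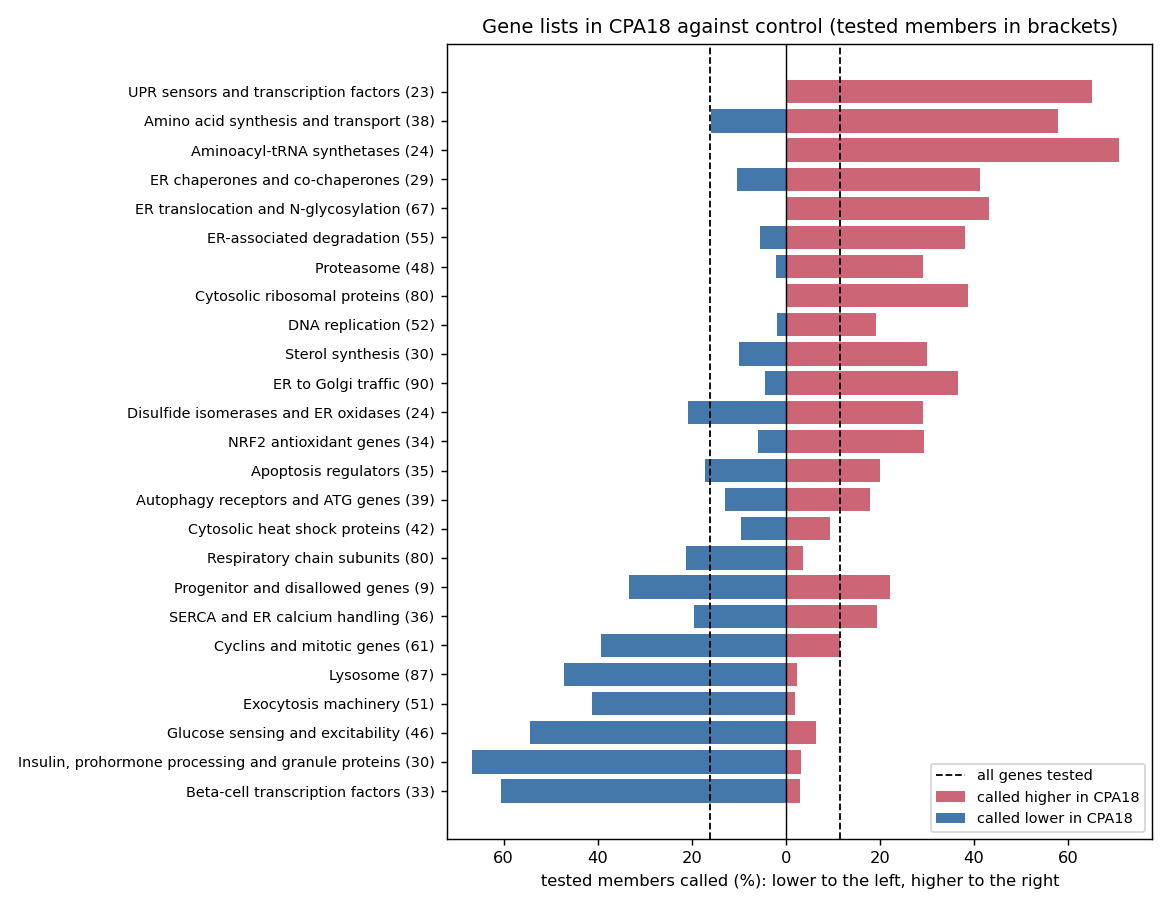
Share of tested members called higher (right, red) and lower (left, blue) in CPA18 against control for 25 gene lists, in percent, with the number of tested members in brackets and dashed lines at the shares over all genes tested (11.6% higher and 16% lower). The aminoacyl-tRNA synthetases reach 70.8% to the right, and the insulin, prohormone processing and granule proteins 66.7% to the left.

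The bar chart of the gene lists orders these groups by their median change. The regulators of the UPR stood at its top. Of 23 tested members of this list, 15 were called higher and 0 lower, with a median log2 fold change of 1.44 against -0.10 over all genes tested. The count higher was 18 with library totals, 9 without the experiment as a block and 15 or 16 in the 9 fits that left out an experiment or a library. DESeq2 also called 15 higher and 0 lower, and no member was lower even at an unadjusted p under 0.05 in edgeR.

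The strongest increases of the list were in genes downstream of PERK. Trib3 encodes a pseudokinase that binds ATF4 and AKT. Its level was 29.2, 23.4 and 24.6 CPM in control experiments 1 to 3 and 483, 771 and 879 CPM in CPA18. The log2 fold change was 4.90 ± 0.28 (SE from the fit, adjusted p = 9.33e-07). Ppp1r15a, which encodes GADD34, the phosphatase subunit that reverses eIF2α phosphorylation, went from 25, 45 and 76.5 CPM to 601, 824 and 1221 CPM, a log2 fold change of 4.17 ± 0.16 (adjusted p = 4.36e-08). Ddit3 encodes CHOP, a transcription factor tied to death after prolonged stress. It went from 18.8, 15.4 and 18.5 CPM to 156, 284 and 374 CPM, a log2 fold change of 4.04 ± 0.24 (adjusted p = 1.19e-06). For all of them each CPA18 library was many times above each control library, and the lowest CPA18 value was in experiment 1. Chac1, whose enzyme degrades glutathione, had 27.1, 29.6 and 44.4 CPM in the control and 325, 491 and 567 CPM in CPA18, a log2 fold change of 3.82 ± 0.20 (adjusted p = 7.03e-07). Atf4 itself had 123, 209.7 and 290.3 CPM in the control and 983, 1601 and 1726 CPM in CPA18, a log2 fold change of 2.82 ± 0.16 (adjusted p = 9.33e-07). These 5 genes were also called without the experiment as a block, with adjusted p from 0.00123 for Trib3 to 0.00843 for Atf4. In GRCm38, Trib3 lies on chromosome 2, 152337425 to 152344060, Ppp1r15a on chromosome 7, 45522917 to 45526268, Ddit3 on chromosome 10, 127290793 to 127296291, and Atf4 on chromosome 15, 80255184 to 80257545.

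The same mRNAs were read after 1 h of CPA in CPA1, a comparison that shares the control libraries. In CPA1, Atf4 stood at 422, 517 and 903 CPM, Chac1 at 181, 203 and 442 CPM, Ddit3 at 38.6, 58.4 and 90.1 CPM and Trib3 at 44.2, 65 and 134 CPM. Each of these CPA1 values lay above the control of its experiment and below CPA18. Herpud1, named below among the degradation genes, stood at 283, 252 and 372 CPM in CPA1, also between both groups in every experiment. Hspa5, in contrast, stood at 546, 398 and 254 CPM in CPA1 and Ins2 at 75145, 136960.0 and 152030.0 CPM, and neither was above its control in all 3 experiments or below it in all 3.

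The sensors differed among themselves. Xbp1, the transcript that IRE1 splices, went from 123, 252 and 339 CPM to 389, 575 and 630.4 CPM (log2 fold change 1.20 ± 0.17, adjusted p = 0.00033, and 0.157 without the block). Atf6 was low, with 10, 11 and 5 counts in the control and 41, 111 and 33 counts in CPA18, and had a log2 fold change of 1.49 ± 0.36 (adjusted p = 0.00954, and 0.316 without the block). Its scaled levels overlapped, because the control of experiment 1 at 20.9 CPM exceeded CPA18 of experiments 2 and 3. Ern1, which encodes IRE1α, had 93.9, 48.7 and 72.1 CPM in the control and 188, 79 and 77.6 CPM in CPA18 and was not called (log2 fold change 0.59 ± 0.25, adjusted p = 0.0896). With library totals the log2 fold change of Ern1 was 0.93 (adjusted p = 0.0131), without experiment 3 it was 0.97 (adjusted p = 0.0252), and without the control library of experiment 3 it was 0.90 (adjusted p = 0.0242). Eif2ak3, which encodes PERK, had 10.4, 8.63 and 13.2 CPM and 36, 10.4 and 19.6 CPM and was not called (log2 fold change 0.70 ± 0.35, adjusted p = 0.156), but the log2 fold change of Eif2ak3 with library totals was 1.10 (adjusted p = 0.0292). Whether the spliced form of Xbp1 changed cannot be read from counts per transcript summed to genes.

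Several other members were picked out after their values were seen. Cebpb and Cebpg, basic leucine zipper factors that pair with ATF4, rose by 2.85 and 1.84 on the log2 scale. Sesn2 and Ddit4, inhibitors of mTORC1 signalling, rose by 2.01 and 2.24. Bhlha15, a factor of secretory cells, rose by 1.76, and Ppp1r15b, the constitutive partner of the eIF2α phosphatase, by 1.44. Nfe2l2, which encodes the antioxidant factor NRF2, was not called at -1.13 ± 0.54 (adjusted p = 0.138).

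**Figure D2:**
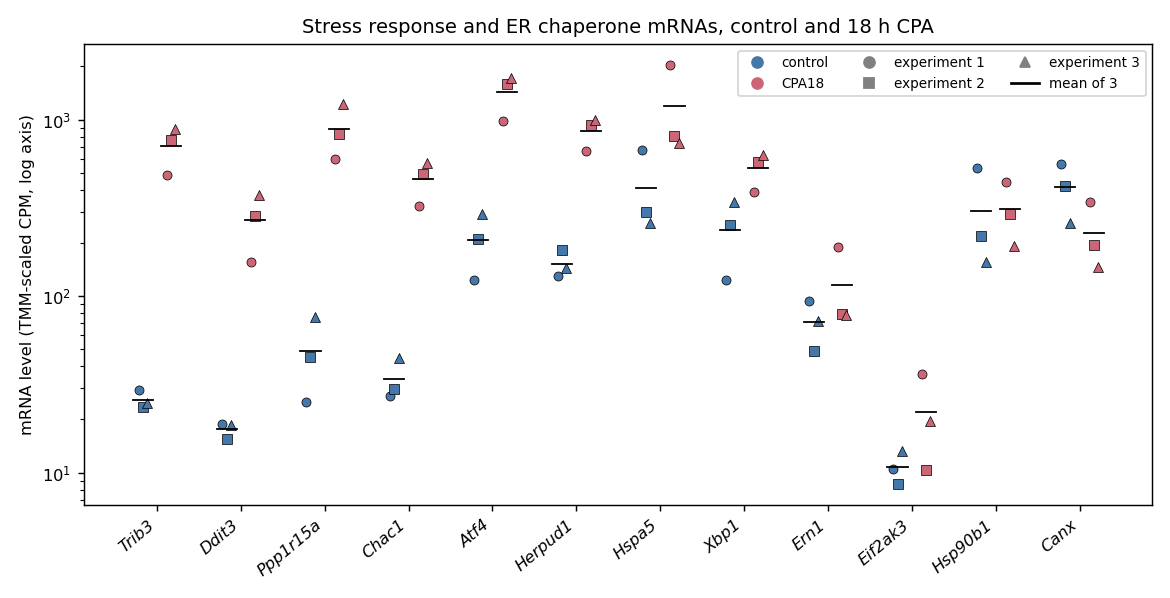
TMM-scaled CPM (log axis) of 12 stress response and ER chaperone mRNAs in each control (blue) and CPA18 (red) library, with a marker shape for each of the 3 experiments and a bar at the mean of 3. The genes Trib3 to Xbp1 show 2 separate groups, whereas Ern1, Eif2ak3, Hsp90b1 and Canx overlap.

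The plot of stress gene levels also shows that ER chaperones did not move as a block. Of 29 tested chaperones and co-chaperones, 12 (41.4%) were called higher and 3 (10.3%) lower, against 11.6% and 16% over all genes tested. The median log2 fold change of the list was 0.63. The counts were 12 or 13 and 3 in every fit that left out a library or an experiment. Without the experiment as a block edgeR called 0 in either direction, with 11 higher and 2 lower at an unadjusted p under 0.05. Hspa5 encodes BiP, the main ER HSP70 chaperone. It had 674, 299.7 and 260.4 CPM in the control and 2041, 812 and 738 CPM in CPA18, a log2 fold change of 1.52 ± 0.16 (adjusted p = 5.08e-05, and 0.136 without the block). Experiment 1 was the highest in both groups, and each CPA18 library was above all controls, though CPA18 of experiment 3 exceeded the control of experiment 1 only by a little. The largest increase of the list was in Fkbp11, an ER peptidyl-prolyl isomerase, with 35.5, 53.6 and 117 CPM in the control and 221, 377 and 385 CPM in CPA18 (log2 fold change 2.38 ± 0.26, adjusted p = 5.21e-05, and 0.0516 without the block). Creld2, a secreted ER stress protein, rose by 1.71 on the log2 scale, Manf, an ER-resident survival factor, by 1.51, the BiP co-chaperone Dnajb9 by 1.51 and Sdf2l1 by 1.43. Calr, the calcium-binding lectin chaperone calreticulin, went from 899, 1118 and 1404 CPM to 2213, 2394 and 3196 CPM (log2 fold change 1.19 ± 0.14, adjusted p = 9.01e-05).

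Other chaperones of the same folding cycle stayed or fell. Hsp90b1, which encodes GRP94, had 532, 219.5 and 156 CPM in the control and 445, 290.2 and 193 CPM in CPA18 and was not called (log2 fold change 0.15 ± 0.16, adjusted p = 0.521). Canx encodes calnexin, the membrane-bound relative of calreticulin, and went from 557, 423 and 258 CPM to 342, 194 and 146 CPM (log2 fold change -0.88 ± 0.15, adjusted p = 0.00127). It was lower in each experiment although the groups overlapped, and with library totals the log2 fold change of Canx was -0.56 (adjusted p = 0.0702). Fkbp9, another ER isomerase, fell from 238, 226 and 306 CPM to 116, 107 and 124 CPM without overlap, and Clgn, a calnexin relative best known from testis, fell by 1.74 on the log2 scale.

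Disulfide isomerases and ER oxidases were split, with 7 of 24 tested members (29.2%) called higher and 5 (20.8%) lower (median log2 fold change 0.24). Over all genes tested these shares were 11.6% and 16%. The 2 oxidases that pass electrons from the isomerases to oxygen moved in opposite directions. Ero1a went from 60.5, 28.4 and 19.4 CPM to 95.6, 62.3 and 44 CPM (log2 fold change 1.01 ± 0.24, adjusted p = 0.0097), and Ero1a was not called without the CPA18 library of experiment 2, where the log2 fold change of Ero1a was 0.89 (adjusted p = 0.0852). Ero1b, the form that β-cells express strongly, went from 922, 532 and 412 CPM to 266, 139 and 115 CPM (log2 fold change -1.86 ± 0.14, adjusted p = 3.7e-06, and 0.0464 without the block). Its highest CPA18 library was below its lowest control library. Pdia6 rose by 1.06 on the log2 scale and P4hb by 0.68, but P4hb was not called without experiment 1, experiment 2 or the CPA18 library of experiment 2, where the log2 fold change of P4hb was 0.56 to 0.63 (adjusted p from 0.0718 to 0.0873). Pdia4 had 146, 628 and 256 CPM in the control and 505, 461 and 570.0 CPM in CPA18 and was not called, and without the control library of experiment 2 the log2 fold change of Pdia4 was 1.49 (adjusted p = 6.8e-06), and without experiment 2 as a whole it was 1.45 (adjusted p = 7.05e-07). Of this list, 3 were called higher and 1 lower without experiment 1, 4 and 2 without experiment 2, 2 and 1 without the CPA18 library of experiment 2, and at most 3 were lower in any of the 9 fits. With library totals 9 were called higher and 2 lower, and without the block 0 and 1.

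Promoters were read for the elements through which the UPR acts. The ER stress element (ERSE) consists of CCAAT, a spacer of 9 bases and CCACG, and was searched on both strands in RefSeq promoter windows of GRCm38.p6 that run from 250 bases before to 50 bases after a transcription start. Windows were found for 8159 of the 10125 genes tested. Of these genes, 15 (0.184%) held an ERSE, with 7 among the 984 called higher (0.711%), 2 among the 1271 called lower (0.157%) and 6 among the genes not called (0.102%). The 7 were Derl3, Alg12, Creld2, Hspa5, Syvn1, Calr and Pdia6, the 2 were Canx and Ero1b, and those not called were Pan2, Dnajc3, Xlr3b, Hsp90b1, Hnrnpa3 and Xlr3a. So the element stood before chaperones that rose, before Hsp90b1, which was not called, and before Canx and Ero1b, which fell. The plot of ERSE genes gives their changes. A match is only a match of letters, and no binding was measured.

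The ERSE sequences are shown because genes with the same element changed in different directions. The whole 250 bases before the start are given for Hspa5, and for the others the element with 15 bases on each side. All run 5′ to 3′ on the strand of the gene, and capitals mark the CCAAT and CCACG blocks, which read CGTGG and ATTGG where the element lies on the other strand. Alg12 and Creld2 are neighbours read from opposite strands and share the same element. Hsp90b1 holds 2 copies in opposite orientations. Among the genes shown, the distance from the element to the start ran from 25 bases in Syvn1 to 201 bases in Alg12, and it was 46 bases in Hspa5.
Hspa5, chr2:34771840-34772089, plus strand: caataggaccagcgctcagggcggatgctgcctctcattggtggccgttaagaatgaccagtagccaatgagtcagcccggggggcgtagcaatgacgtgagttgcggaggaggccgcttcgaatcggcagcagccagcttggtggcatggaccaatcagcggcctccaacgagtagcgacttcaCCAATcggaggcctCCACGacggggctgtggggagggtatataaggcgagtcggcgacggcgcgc
Derl3, chr10:75893227-75893275, plus strand: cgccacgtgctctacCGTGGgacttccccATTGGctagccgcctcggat
Alg12, chr15:88819505-88819553, minus strand: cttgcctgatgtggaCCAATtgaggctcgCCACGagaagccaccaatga
Creld2, chr15:88819505-88819553, plus strand: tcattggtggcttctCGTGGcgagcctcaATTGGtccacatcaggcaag
Syvn1, chr19:6046517-6046565, plus strand: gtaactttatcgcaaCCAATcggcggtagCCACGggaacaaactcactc
Calr, chr8:84847060-84847108, minus strand: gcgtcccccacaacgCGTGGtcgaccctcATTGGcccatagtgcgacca
Pdia6, chr12:17266476-17266524, plus strand: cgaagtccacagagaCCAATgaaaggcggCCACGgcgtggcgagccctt
Dnajc3, chr14:118937812-118937860, plus strand: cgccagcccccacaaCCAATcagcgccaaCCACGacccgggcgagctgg
Hsp90b1, chr10:86705518-86705671, minus strand: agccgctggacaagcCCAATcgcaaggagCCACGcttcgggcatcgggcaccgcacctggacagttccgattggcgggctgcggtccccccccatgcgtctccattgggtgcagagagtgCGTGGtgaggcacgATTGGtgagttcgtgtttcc
Canx, chr11:50325785-50325833, minus strand: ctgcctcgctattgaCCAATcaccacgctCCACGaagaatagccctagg
Ero1b, chr13:12565667-12565715, plus strand: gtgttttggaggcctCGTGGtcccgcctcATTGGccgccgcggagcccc

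**Figure D3:**
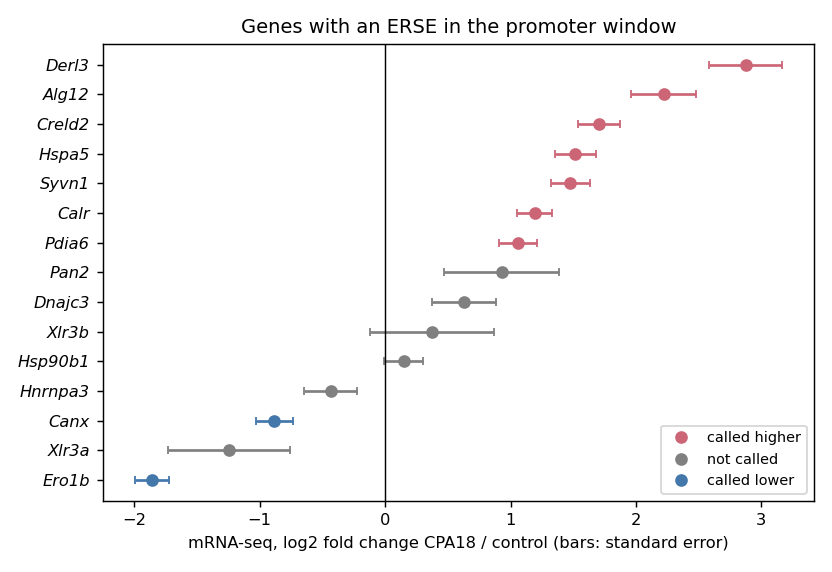
log2 fold change of CPA18 over control for the 15 genes with an ERSE in a promoter window (bars are standard errors from the fit), coloured by call. The values run from 2.87 for Derl3 to -1.86 for Ero1b, with 7 genes called higher, 2 lower and 6 not called.

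Shorter elements were more common. CCACG alone stood in the windows of 54.1% of all genes, of 63.5% of those called higher and of 47.8% of those called lower. The XBP1 element TGACGTGG, which holds CCACG on its other strand, stood in 1.10% of all, 2.85% of the higher and 0.708% of the lower genes. The cAMP element TGACGTCA stood in 3.98%, 4.37% and 3.38%. The C/EBP-ATF element TGATGNAAN, through which ATF4 acts with C/EBP factors, stood in 2.51%, 3.86% and 2.60%. Genes with more than 1 start had more than 1 window, which held for 1706 of the 8159. Among genes with a single window the shares of the XBP1 element were 0.806% of all, 2.17% of the higher and 0.416% of the lower genes. Stretches with the C/EBP-ATF element are shown for genes of the ATF4 pathway, with the element in capitals on either strand and 15 bases on each side, or up to the start where it lies closer. Slc7a11, the cystine transporter, holds 2 copies and was not called. Among the other named genes the element also stood in the windows of Trib3 and Yars, which were called higher, and of Slitrk6 and Yod1, which were called lower.
Chac1, chr2:119351033-119351071, plus strand: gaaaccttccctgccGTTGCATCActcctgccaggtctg
Herpud1, chr8:94386301-94386339, plus strand: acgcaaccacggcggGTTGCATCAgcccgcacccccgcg
Asns, chr6:7693210-7693247, minus strand: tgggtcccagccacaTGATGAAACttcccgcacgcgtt
Gars, chr6:55037955-55037993, plus strand: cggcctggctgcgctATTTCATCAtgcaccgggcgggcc
Slc7a11, chr3:50443638-50443694, minus strand: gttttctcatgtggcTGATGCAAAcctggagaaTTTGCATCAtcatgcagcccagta

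ER-associated degradation removes misfolded proteins from the ER. Of 55 tested members of this pathway (ERAD), 21 (38.2%) were called higher and 3 (5.45%) lower, against 11.6% and 16% over all genes tested. The other 31 were not called, and the median log2 fold change of the list was 0.44. Without the block 6 members were called higher. Without the CPA18 library of experiment 2, 11 were called higher, and 0 to 3 were lower in the 9 fits. Derl3, a derlin of the channel through which proteins leave the ER, went from 4.17, 11.1 and 12.3 CPM to 46.4, 85.3 and 81.6 CPM (log2 fold change 2.87 ± 0.29, adjusted p = 3.54e-05, and 0.00828 without the block). Herpud1, a scaffold of the ligase complex, went from 129, 182 and 144 CPM to 664, 933 and 988 CPM (log2 fold change 2.50 ± 0.18, adjusted p = 2.81e-06, and 0.00492 without the block). In both the groups were far apart. Syvn1 encodes HRD1, the ubiquitin ligase of the complex, and rose from 89.7, 103 and 101 CPM to 266, 271 and 282 CPM (log2 fold change 1.48 ± 0.16, adjusted p = 5.13e-05). Selenos, which recruits the extraction ATPase, rose by 1.39 on the log2 scale. Sel1l, the adaptor of HRD1, had 213, 69.7 and 74.3 CPM in the control and 269, 122 and 132 CPM in CPA18 (log2 fold change 0.65 ± 0.22, adjusted p = 0.0411), with overlapping groups. Sel1l kept its call without experiment 2 or the control library of experiment 1 but not without any other experiment or library, where the log2 fold change of Sel1l was 0.47 to 0.82 (adjusted p from 0.0557 to 0.158). Edem1, which directs glycoproteins to degradation, rose by 0.97 (adjusted p = 0.0145), but Edem1 was not called without experiment 1, experiment 2, the control library of experiment 2, the CPA18 library of experiment 1 or the CPA18 library of experiment 2, where the log2 fold change of Edem1 was 0.68 to 1.00 (adjusted p from 0.0542 to 0.0988). The largest decrease was in the deubiquitinase Yod1, at -2.06 on the log2 scale, with at most 16.7 CPM in any of the 6 libraries. Yod1 was not called without experiment 1, experiment 3, the control library of experiment 3, the CPA18 library of experiment 1 or the CPA18 library of experiment 3, where the log2 fold change of Yod1 was -2.09 to -1.21 (adjusted p from 0.0773 to 0.115).

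Translocation and N-glycosylation bring new proteins into the ER. Of 67 tested genes of these steps, 29 (43.3%) were called higher and 0 lower, against 11.6% and 16% over all genes tested. The other 38 were not called, and the median log2 fold change of the list was 0.50. Higher calls numbered 2 without the block and 17 without the CPA18 library of experiment 2. DESeq2 called 27 higher and 0 lower, and 1 was lower at an unadjusted p under 0.05 in edgeR. Sec61a1, the pore of the translocon, went from 471, 601 and 970.3 CPM to 1206, 1545 and 1926 CPM (log2 fold change 1.23 ± 0.14, adjusted p = 6.93e-05), and each CPA18 library was above each control library. Alg12, a mannosyltransferase that builds the glycan, rose by 2.22 on the log2 scale and Srp9, a protein of the signal recognition particle, by 1.57. Ssr1 and Stt3b, a translocon-associated subunit and an oligosaccharyltransferase subunit, were not called at 0.35 ± 0.15 and 0.25 ± 0.17. With an offset for transcript length the log2 fold change of Ssr1 was 0.81 (adjusted p = 0.00576).

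Of 90 tested genes of ER-to-Golgi traffic, 33 (36.7%) were called higher and 4 (4.44%) lower, against 11.6% and 16% over all genes tested. The other 53 were not called, and the median log2 fold change of the list was 0.29. Without the block 1 was called higher, without experiment 1 it was 17, and without the CPA18 library of experiment 2 it was 18. Kdelr3, which returns escaped ER proteins, rose most, from 1, 12 and 35 counts to 28, 235 and 83 counts or 2.09, 7.40 and 15.4 CPM to 26.5, 34.4 and 33.2 CPM (log2 fold change 1.76 ± 0.35, adjusted p = 0.00332). Sec23b, an inner coat protein of COPII vesicles, rose by 1.07, and the cargo receptor Mcfd2 by 1.46. Its partner Lman1 rose by 0.64 (adjusted p = 0.0342), with overlapping groups. Lman1 kept its call without experiment 2 or the control library of experiment 1 but not without any other experiment or library, where the log2 fold change of Lman1 was 0.51 to 0.79 (adjusted p from 0.0593 to 0.153). The largest decrease was in Tmed8, at -1.99.

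Of 38 tested genes of amino acid synthesis and transport, 22 (57.9%) were called higher and 6 (15.8%) lower. Over all genes tested these shares were 11.6% and 16%. The median log2 fold change of the list was 1.15. Without the block 12 were called higher and 2 lower, and 20 and 3 without the CPA18 library of experiment 2. Cth, which makes cysteine from cystathionine, went from 1, 3 and 7 counts to 43, 166 and 63 counts, or 2.09, 1.85 and 3.08 CPM to 40.7, 24.3 and 25.2 CPM (log2 fold change 3.46 ± 0.38, adjusted p = 6.33e-05). The glycine transporter Slc6a9 went from 8.34, 8.63 and 15.8 CPM to 102, 126 and 132 CPM (log2 fold change 3.45 ± 0.31, adjusted p = 1.71e-05). Both had groups far apart and were called without the block. In serine synthesis Phgdh rose by 2.23 on the log2 scale and Psat1 by 1.19, and the mitochondrial folate enzyme Mthfd2 rose by 1.53. Asns, which makes asparagine, had 100.1, 120.2 and 215 CPM in the control and 239.6, 315 and 329 CPM in CPA18 (log2 fold change 1.10 ± 0.20, adjusted p = 0.00211), and the leucine transporter Slc7a5 rose by 1.32. Slc7a11, often counted as an ATF4 target, had 22.9, 29.6 and 65.1 CPM and 29.4, 33.1 and 52.4 CPM and was not called (log2 fold change -0.01 ± 0.23, adjusted p = 0.975). The arginine transporter Slc7a2 fell from 119, 31.4 and 33 CPM to 13.3, 9.08 and 9.60 CPM (log2 fold change -2.23 ± 0.32, adjusted p = 0.000373), and Cbs, which makes cystathionine, fell from 93.9, 121 and 207 CPM to 35, 43.5 and 38 CPM (log2 fold change -1.79 ± 0.22, adjusted p = 0.00014). So the enzymes on either side of cystathionine moved in opposite directions.

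Of the 24 aminoacyl-tRNA synthetases, which load tRNAs with amino acids, 17 (70.8%) were called higher and 0 lower. Over all genes tested these shares were 11.6% and 16%. The median log2 fold change of the list was 1.03. Without the block 1 was called higher, and without experiment 1 it was 12. DESeq2 called 16 higher and 0 lower, and none was lower at an unadjusted p under 0.05 in edgeR. Nars and Yars rose most, Nars from 104, 51.8 and 55 CPM to 404, 189.8 and 196 CPM (log2 fold change 1.89 ± 0.19, adjusted p = 3.03e-05) and Yars by 1.67. Wars rose by 1.07 and Sars by 0.83. Gars rose by 0.46 (adjusted p = 0.0202), but Gars was not called without experiment 1, experiment 2, the control library of experiment 2, the CPA18 library of experiment 1 or the CPA18 library of experiment 2, where the log2 fold change of Gars was 0.38 to 0.52 (adjusted p from 0.0518 to 0.185). The call was also lost with an offset for transcript length, where the log2 fold change of Gars was 0.28 (adjusted p = 0.0772).

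Ribosomal protein mRNAs and the proteasome moved by less. Of 80 cytosolic ribosomal protein genes, 31 were called higher and 0 lower (median log2 fold change 0.34). All CPA18 libraries were above all controls for only 3 of them, against 11.3% of all genes tested. The count called higher was 4 without experiment 1, and 7 and 17 without the CPA18 library of experiment 2 and of experiment 1. It was 0 without the block (2 at an unadjusted p under 0.05) and 17 with an offset for transcript length. With library totals it was 50, and 64 with library totals without Ins1, Ins2 and Lars2. DESeq2 called 27 higher and 0 lower, and edgeR had 1 lower at an unadjusted p under 0.05. Rpl12 stood out with 211, 401 and 411 CPM in the control and 553, 925 and 849.6 CPM in CPA18 (log2 fold change 1.21 ± 0.13, adjusted p = 6.8e-05). Rplp0, a stalk protein often used as a reference gene, had 1005, 2140.3 and 2477 CPM and 1492, 2625 and 3194 CPM (log2 fold change 0.41 ± 0.13, adjusted p = 0.0328), with overlapping groups. Rplp0 kept its call without the control library of experiment 1 or the CPA18 library of experiment 3 but not without any other experiment or library, where the log2 fold change of Rplp0 was 0.34 to 0.54 (adjusted p from 0.0511 to 0.145). With the length offset the log2 fold change of Rplp0 was 0.15 (adjusted p = 0.354). Many ribosomal protein genes have processed pseudogenes, and reads shared with them cannot be placed with certainty. Of 48 proteasome genes tested, 14 (29.2%) were called higher and 1 (2.08%) lower, with a median of 0.35. Over all genes tested these shares were 11.6% and 16%. Proteasome genes called higher numbered 3 without experiment 1, 9 without experiment 2 and 7 with the length offset. Without the CPA18 library of experiment 1 the number was 8, and without that of experiment 2 it was 2. Without the block 0 were called in either direction, and with library totals 23 were called higher and 0 lower. The assembly chaperone Psmg1 and the lid subunit Psmd7 rose by 1.09 and 0.98, and the catalytic subunit Psmb5 was not called at 0.35 ± 0.15.

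Genes of insulin production were among those with the largest decreases. Reads on Ins1 and Ins2 together took 6.60, 20.9 and 17.5% of the control libraries and 1.44, 4.94 and 5.06% of the CPA18 libraries. The mean was 15.0% ± 7.49 in the control and 3.81% ± 2.06 in CPA18 (SD, n = 3 each), and the groups did not overlap. The difference was -11.2 percentage points (two-sided exact permutation test, p = 0.1, the smallest p that 3 against 3 allow). Unlike the fit with the experiment as a block, this test did not pair libraries by experiment. Wilson 95% confidence intervals, which cover counting error only, ran from 6.53 to 6.66% for the lowest control and from 5.03 to 5.09% for the highest CPA18 library. Ins2 had 64330.0, 188630.0 and 165740.0 CPM in the control and 15813, 32003 and 33787 CPM in CPA18 (log2 fold change -2.30 ± 0.29, adjusted p = 0.000174, and 0.147 without the block). Ins1 had 7352, 23636 and 19728 CPM and 1143, 2414 and 2608 CPM (log2 fold change -2.98 ± 0.21, adjusted p = 2.65e-06, and 0.024 without the block). In both genes experiment 1 was the lowest in its group, and the highest CPA18 library was well below the lowest control. Their transcripts are similar, and reads may have been divided between them.

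Of 30 tested genes of insulin, prohormone processing and granule proteins, 20 (66.7%) were called lower and 1 higher (median log2 fold change -1.12). Over all genes tested, 16% were called lower and 11.6% higher. In every fit that left out a library or an experiment, 18 to 20 of the list were called lower. Without the block 9 were called lower. Pcsk2 encodes a convertase that cuts proinsulin, and it fell from 1846, 2679 and 3307 CPM to 598, 714 and 743 CPM (log2 fold change -1.89 ± 0.15, adjusted p = 6.89e-06, and 0.0238 without the block). Pcsk1, its partner convertase, fell from 121, 62.3 and 55 CPM to 24.6, 18.6 and 18.8 CPM (log2 fold change -1.84 ± 0.21, adjusted p = 9.01e-05). Cpe, the carboxypeptidase that trims the cut ends, had 3147, 2575 and 2306 CPM in the control and 3034, 2641 and 3098 CPM in CPA18 and was not called (log2 fold change 0.14 ± 0.14, adjusted p = 0.51). So mRNAs of the convertases fell whereas that of the trimming enzyme overlapped between groups. Chga, a granule protein, fell by 1.29 on the log2 scale. Iapp, the amyloid peptide secreted with insulin, fell by 1.13 (adjusted p = 0.0058), and with library totals the log2 fold change of Iapp was -0.80 (adjusted p = 0.0896).

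Ucn3, a peptide that marks mature β-cells, showed the largest decrease among the named genes. It had 18, 95 and 105 counts in the control and 3, 15 and 5 counts in CPA18, or 37.5, 58.6 and 46.2 CPM and 2.84, 2.20 and 2.0 CPM (log2 fold change -4.47 ± 0.29, adjusted p = 2.09e-06, and 0.000596 without the block). Nnat, an imprinted gene whose small membrane protein aids preproinsulin processing, fell from 1268, 3508 and 3113 CPM to 242, 301 and 197 CPM (log2 fold change -3.32 ± 0.25, adjusted p = 3.91e-06). The single increase of this list was Ica1, an islet autoantigen, at 0.85 ± 0.27 (adjusted p = 0.0337). Ica1 kept its call without the control library of experiment 1 but not without any other experiment or library, where the log2 fold change of Ica1 was 0.78 to 0.99 (adjusted p from 0.0505 to 0.177).

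**Figure D4:**
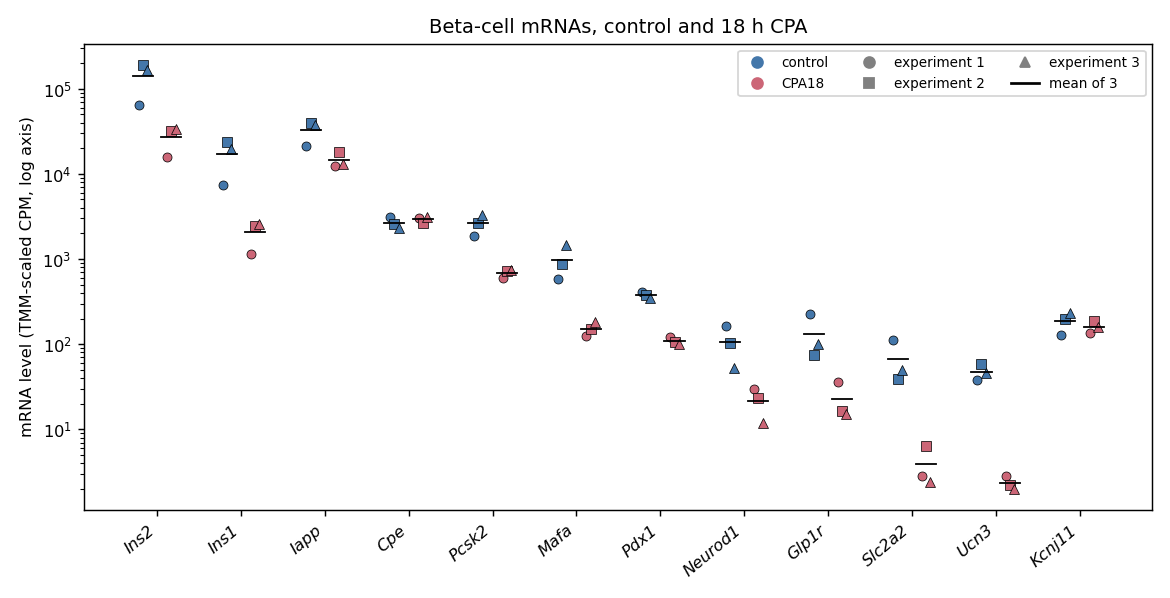
TMM-scaled CPM (log axis) of 12 β-cell mRNAs in each control (blue) and CPA18 (red) library, with a marker shape for each of the 3 experiments and a bar at the mean of 3. Cpe and Kcnj11 overlap between groups, and every other gene shown has all CPA18 libraries below all controls.

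Most transcription factors of β-cells were called lower, and the plot of β-cell mRNAs shows 3 of them. Of 33 tested members, 20 (60.6%) were called lower and 1 higher, against 16% and 11.6% over all genes tested. The median log2 fold change of the list was -1.57, and 6 members were called lower without the block. Over the fits that left out a library or an experiment, 15 to 20 were called lower. Mafa, an activator of the insulin genes, fell from 578, 881 and 1462 CPM to 123, 152 and 180.4 CPM (log2 fold change -2.62 ± 0.19, adjusted p = 2.81e-06, and 0.00682 without the block). Pdx1, which controls pancreas formation and β-cell function, fell from 411, 379.8 and 346 CPM to 120.3, 106 and 102 CPM (log2 fold change -1.80 ± 0.13, adjusted p = 3.37e-06, and 0.00793 without the block). Its 3 libraries of a group lay close together, and the groups were far apart. Neurod1 fell from 163, 102 and 51.9 CPM to 29.4, 23.3 and 12 CPM (log2 fold change -2.25 ± 0.22, adjusted p = 2.53e-05), Nkx6-1 fell by 2.03 on the log2 scale and Nkx2-2 by 1.69. None of these overlapped between groups, though by little for Nkx2-2. Without the block Neurod1, Nkx6-1 and Nkx2-2 lost their calls (adjusted p = 0.0565, 0.0552 and 0.0658). Mnx1, which specifies β-cells, showed the largest decrease of the list, from 129, 126 and 150.0 CPM to 7.58, 12.6 and 23.6 CPM (log2 fold change -3.21 ± 0.24, adjusted p = 3.7e-06). Nr4a1, an immediate early nuclear receptor, had 35.5, 183 and 214 CPM in the control, 392, 291 and 498 CPM after 1 h of CPA and 4.74, 25.6 and 12 CPM in CPA18 (log2 fold change of CPA18 -3.20 ± 0.46, adjusted p = 0.000436). It was thus above the control at 1 h and below it at 18 h in every experiment. Lmo1, a LIM-only protein, was the 1 member called higher, at 0.76 ± 0.21 (adjusted p = 0.0179). Lmo1 was not called without experiment 1, the CPA18 library of experiment 1 or the CPA18 library of experiment 2, where the log2 fold change of Lmo1 was 0.59 to 0.74 (adjusted p from 0.0505 to 0.104). Mafa lies on chromosome 15, 75745501 to 75748321 and Pdx1 on chromosome 5, 147270097 to 147275848 in GRCm38.

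Of 46 tested genes of glucose sensing and excitability, 25 (54.3%) were called lower and 3 (6.52%) higher. Over all genes tested these shares were 16% and 11.6%. The median log2 fold change of the list was -1.0. With library totals 15 were called lower and 3 higher (median -0.58), and without the block 7 lower and 1 higher. In the 9 fits 14 to 20 were called lower. The counts under 17 were 14 without experiment 1, 16 without experiment 3, 16 without the control library of experiment 3 and 15 without the CPA18 library of experiment 2. Slc2a2 encodes GLUT2, the glucose transporter of rodent β-cells. It went from 53, 64 and 114 counts in the control to 3, 44 and 6 counts in CPA18, or 111, 39.5 and 50.1 CPM to 2.84, 6.45 and 2.40 CPM (log2 fold change -3.68 ± 0.38, adjusted p = 3.71e-05, and 0.00532 without the block). Slc2a1, which encodes the ubiquitous transporter GLUT1, moved the other way, from 6.26, 8.63 and 14.5 CPM to 22.7, 34 and 38 CPM (log2 fold change 1.72 ± 0.29, adjusted p = 0.00122). Scaled to transcript length, the mean control level of Slc2a1 was 3.81 RPKM and its CPA18 level 12.3 RPKM, and the mean CPA18 level of Slc2a2 was 1.52 RPKM, so GLUT1 mRNA was above GLUT2 mRNA only in CPA18. G6pc2, the islet subunit of glucose-6-phosphatase, fell from 1204, 543 and 623 CPM to 305, 141 and 164 CPM (log2 fold change -1.95 ± 0.13, adjusted p = 2.09e-06).

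The 2 subunits of the ATP-sensitive potassium channel differed. Abcc8, the sulfonylurea receptor, fell from 313, 283 and 343 CPM to 120.3, 132 and 107 CPM (log2 fold change -1.37 ± 0.16, adjusted p = 9.41e-05), with no overlap. Kcnj11, the pore, had 127, 195 and 233 CPM and 134, 189 and 159 CPM and was not called (log2 fold change -0.18 ± 0.17, adjusted p = 0.458). The difference between the subunits was not tested. Glp1r, the incretin receptor, fell from 223, 74.6 and 100.3 CPM to 36, 16.6 and 15.2 CPM (log2 fold change -2.53 ± 0.24, adjusted p = 2.11e-05), and the potassium channel Kcnk16 fell by 3.45 on the log2 scale. The somatostatin receptor Sstr3 rose by 1.53.

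Of 51 tested genes of the exocytosis machinery, 21 (41.2%) were called lower and 1 higher (median log2 fold change -0.79). Over all genes tested, 16% were called lower and 11.6% higher (median -0.10). With library totals 15 of the list were called lower and 2 higher (median -0.39), against 7.48% and 19.7% over all genes. Lower calls numbered 9 without the block and 14 without the CPA18 library of experiment 2. The core SNARE proteins were not among the genes called lower. Snap25 was not called at -0.47 ± 0.33, Vamp2 at 0.28 ± 0.15 and Stx1a at -0.83 ± 0.39, although the log2 fold change of Stx1a was -1.37 (adjusted p = 0.0066) without the control library of experiment 3 and -1.33 (adjusted p = 0.0165) without experiment 3, and the log2 fold change of Vamp2 was 0.64 (adjusted p = 0.0447) with library totals. The calcium sensor Syt7 fell from 62.6, 30.2 and 34.7 CPM to 16.1, 7.03 and 6.0 CPM (log2 fold change -2.21 ± 0.25, adjusted p = 7.27e-05). The granule protein Sv2b fell by 2.87 on the log2 scale and the Rab effector Rph3al by 2.64. Syt4, a synaptotagmin that does not bind calcium well, was higher at 0.88 ± 0.25 (adjusted p = 0.0218), but Syt4 was not called without experiment 1, the control library of experiment 2, the CPA18 library of experiment 1, the CPA18 library of experiment 2 or the CPA18 library of experiment 3, where the log2 fold change of Syt4 was 0.64 to 0.99 (adjusted p from 0.0559 to 0.112).

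How many lysosomal genes passed the test depended on the scaling. Of 87 tested members, 41 were called lower and 2 higher with TMM (median log2 fold change -0.66), 11 lower and 6 higher with library totals (median -0.29), and 1 lower without the block. Without experiment 3, 24 were called lower with TMM. Over all genes tested, 16% were called lower and 11.6% higher with TMM, and 7.48% and 19.7% with library totals. All CPA18 libraries were below all control libraries for 34 of the lysosomal genes, against 11% of all genes tested. The summed level of the tested lysosomal genes was 12183, 16662 and 18727 CPM in the control and 8608, 11036 and 11660 CPM in CPA18. Lamp2, a membrane protein of the lysosome, fell from 171, 99.9 and 60.3 CPM to 51.1, 31.1 and 20.4 CPM (log2 fold change -1.66 ± 0.18, adjusted p = 5.29e-05, and 0.0923 without the block). Arsb, a sulfatase, fell from 146, 67.8 and 73.9 CPM to 42.6, 26.7 and 28 CPM (log2 fold change -1.50 ± 0.19, adjusted p = 0.000165). Neither overlapped between groups. Ctsd, a main protease of the compartment, had 359, 800.4 and 976 CPM and 420.5, 671 and 749.6 CPM and was not called (log2 fold change -0.15 ± 0.15, adjusted p = 0.479). The members called higher were the cholesterol exporter Npc1 at 0.95 and the lysosomal transcription factor Tfe3 at 0.90. Npc1 was not called without experiment 3, the control library of experiment 3, the CPA18 library of experiment 2 or the CPA18 library of experiment 3, where the log2 fold change of Npc1 was 0.80 to 0.89 (adjusted p from 0.051 to 0.08), and Tfe3 was not called without the CPA18 library of experiment 2, where the log2 fold change of Tfe3 was 0.88 (adjusted p = 0.0538).

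With TMM, 7 of 39 autophagy genes (17.9%) were called higher and 5 (12.8%) lower (median log2 fold change 0.10). Over all genes tested 11.6% were called higher and 16% lower. In the 9 fits 3 to 7 autophagy genes were higher and 1 to 4 lower. With library totals 12 were called higher and 1 lower, and without the block 0 in either direction. The cargo receptor Sqstm1, also a target of NRF2, went from 446, 667 and 977 CPM to 1602, 2573 and 2928 CPM (log2 fold change 1.79 ± 0.13, adjusted p = 3.7e-06, and 0.0502 without the block). Map1lc3b, which encodes LC3B, was not called at 0.10 ± 0.14. Atg4c fell by 2.62, but its control levels were 16.7, 251 and 14.1 CPM, of which that of experiment 2 stood far above the rest. Atg4c was not called without experiment 1, the control library of experiment 2 or the CPA18 library of experiment 2, where the log2 fold change of Atg4c was -2.92 to -1.22 (adjusted p from 0.0655 to 0.156). Of 34 NRF2 target genes, 10 were called higher and 2 lower (median 0.18), and 5 to 9 higher in the 9 fits, with 5 without experiment 1 and 6 without experiment 2 or without the CPA18 library of experiment 2. Without the block 0 of them were called. Hmox1, heme oxygenase, had 25, 170.2 and 51 CPM in the control and 127, 234 and 234 CPM in CPA18 (log2 fold change 1.44 ± 0.36, adjusted p = 0.0123), and Hmox1 was not called without experiment 1, where the log2 fold change of Hmox1 was 1.20 (adjusted p = 0.124). Gclm and Txnrd1 were not called at 0.02 ± 0.22 and 0.12 ± 0.18. Nqo1 was not tested, with at most 6 counts in a library. Of 42 cytosolic heat shock genes, 4 (9.52%) were called higher and 4 (9.52%) lower (median 0.02), against 11.6% and 16% over all genes. With library totals 8 were called higher and 1 lower, against shares of 19.7% and 7.48% over all genes. Without the block the counts were 0 and 0. The inducible Hspa1a and Hspa1b were not called at 0.31 ± 0.30 and 0.35 ± 0.33. Hsp90aa1 fell from 476, 296 and 165 CPM to 191, 154 and 80.8 CPM.

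In sterol synthesis, 9 of 30 tested genes (30%) were called higher and 3 (10%) lower, against 11.6% and 16% over all genes tested. The median log2 fold change was 0.30. With library totals 11 were called higher and 0 lower, and without the block 3 and 0. The enzymes Lss, which closes the sterol ring, and Msmo1 rose by 2.06 and 1.86 on the log2 scale. Lss had 25, 21 and 23.3 CPM in the control and 85.2, 82 and 117 CPM in CPA18, without overlap (adjusted p = 3.29e-05, and 0.00793 without the block). Insig1, which holds the pathway's regulator in the ER, rose by 0.67. Soat1, which esterifies cholesterol, fell by 1.15, but with library totals the log2 fold change of Soat1 was -0.77 (adjusted p = 0.0693), and Soat1 was not called without experiment 3, where the log2 fold change of Soat1 was -0.87 (adjusted p = 0.0585).

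Genes of ER calcium handling include the target of CPA. Of 36 tested members, 7 (19.4%) were called higher and 7 (19.4%) lower with TMM, against 11.6% and 16% over all genes tested. The median log2 fold change was -0.42 with TMM and 0.01 with library totals, against -0.10 and 0.30 over all genes. Atp2a2 encodes SERCA2, and went from 1762, 773 and 649.6 CPM to 863, 310.0 and 356 CPM (log2 fold change -1.06 ± 0.18, adjusted p = 0.00124, and 0.301 without the block). CPA18 was below its own control in each experiment, but experiment 1 was more than the others in both groups, so the groups overlapped. Atp2a3, which encodes SERCA3, fell from 1012, 1431 and 1777 CPM to 436, 652 and 628 CPM without overlap (log2 fold change -1.28 ± 0.14, adjusted p = 5.55e-05). The plasma membrane calcium pump Atp2b1 fell by 1.72. Wfs1, wolframin of the ER membrane, rose from 70.9, 98.7 and 127 CPM to 228, 364 and 434 CPM (log2 fold change 1.78 ± 0.17, adjusted p = 2.44e-05), and Stc2, a secreted stanniocalcin, rose by 2.28. Of 80 respiratory chain subunits, 3 (3.75%) were called higher and 17 (21.25%) lower with TMM. Their median of -0.07 was near the -0.10 of all genes tested. With an offset for transcript length, 3 of the 80 were called higher and 28 lower (median -0.25). Over all 10125 genes tested, that offset gave 1028 higher and 1558 lower calls. With library totals 10 were called higher and 0 lower, against shares of 19.7% and 7.48% over all genes. The median was then 0.31, against 0.30 over all genes. Over the 9 fits with TMM the count lower ran from 2, without experiment 3, to 16. Ndufs1, of complex I, and Cox4i1, of complex IV, were not called at 0.21 ± 0.22 and -0.35 ± 0.14, and the ATP synthase subunit gene Atp5g1 rose by 1.13.

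With TMM, 7 of 35 tested apoptosis regulators (20%) were called higher and 6 (17.1%) lower, against 11.6% and 16% over all genes tested. Their median log2 fold change was 0.18. In the 9 fits 3 to 9 were higher and 1 to 4 lower. With library totals 11 were called higher and 1 lower, and without the block 0 in either direction. Bbc3 encodes PUMA, a killer protein of the BCL2 family, and went from 1, 5 and 3 counts to 6, 95 and 24 counts, or 2.09, 3.08 and 1.32 CPM to 5.68, 13.9 and 9.60 CPM (log2 fold change 2.29 ± 0.46, adjusted p = 0.00373). Bcl2l11, which encodes BIM, was not called at -0.50 ± 0.30. Txnip, a thioredoxin inhibitor that responds to glucose, had 254, 149 and 18 CPM in the control and 403, 301 and 297 CPM in CPA18 (log2 fold change 1.81 ± 0.50, adjusted p = 0.0182). Its control libraries differed far more than its CPA18 libraries, and Txnip was not called without the CPA18 library of experiment 3, where the log2 fold change of Txnip was 1.06 (adjusted p = 0.0587). Birc6, an inhibitor of apoptosis, fell by 1.76, but Birc6 was not called without experiment 1 or the CPA18 library of experiment 1, where the log2 fold change of Birc6 was -1.47 to -1.46 (adjusted p from 0.054 to 0.0954). The call was also lost with an offset for transcript length, where the log2 fold change of Birc6 was -0.98 (adjusted p = 0.105).

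Genes of mitosis and genes of DNA synthesis gave different counts. Of 61 tested cyclins and mitotic genes, 24 (39.3%) were called lower and 7 (11.5%) higher with TMM (median log2 fold change -0.60). Over all genes tested these shares were 16% and 11.6%. With library totals 9 were lower and 9 higher (median -0.23), against 7.48% and 19.7% over all genes. With TMM, 9 were called lower without experiment 1 and 9 without the CPA18 library of experiment 1 or of experiment 2, and 12 without the control library of experiment 1. Without the block 1 was called lower and 1 higher. Mki67, a proliferation marker, went from 93.9, 37.6 and 10.1 CPM to 10.4, 11.1 and 5.20 CPM (log2 fold change -1.98 ± 0.34, adjusted p = 0.00128, and 0.139 without the block). It was lower in each experiment, but the control of experiment 3 was already at the level of CPA18, so the groups overlapped. Cdkn1a, which encodes the cell cycle inhibitor p21, was higher at 0.64 ± 0.18 (adjusted p = 0.0229), but Cdkn1a was not called without experiment 1, experiment 2, the CPA18 library of experiment 1, the CPA18 library of experiment 2 or the CPA18 library of experiment 3, where the log2 fold change of Cdkn1a was 0.50 to 0.70 (adjusted p from 0.0504 to 0.111). With the length offset the log2 fold change of Cdkn1a was 0.42 and its call was lost (adjusted p = 0.102). Trp53 rose by 1.22. Of 52 genes of DNA replication, 10 were called higher and 1 lower (median 0.31), and 5 to 12 higher in the 9 fits, with 5 without experiment 1 or without the CPA18 library of experiment 2. With library totals 18 were called higher, and without the block 0. Cdc6, a licensing factor, rose by 1.69, while Pcna, the sliding clamp, was not called at 0.18 ± 0.15. The difference between the lists was not tested.

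Genes kept low in mature β-cells, or found in their progenitors, gave few values. Of 26 listed, 9 were tested, and 2 were called higher and 3 lower (median log2 fold change -0.38). Over all genes tested, 11.6% were called higher and 16% lower. With library totals 3 of the list were called higher and 2 lower (median -0.006). With 9 members these counts say little about the list. Slc16a1, a monocarboxylate transporter that β-cells normally lack, rose from 6.26, 3.08 and 3.96 CPM to 29.4, 9.67 and 10.4 CPM (log2 fold change 1.64 ± 0.42, adjusted p = 0.0133), but Slc16a1 was not called without experiment 1 or the CPA18 library of experiment 3, where the log2 fold change of Slc16a1 was 1.45 to 1.57 (adjusted p from 0.0556 to 0.114). Ldha, lactate dehydrogenase, fell from 20.9, 88.8 and 70.8 CPM to 0.947, 20.9 and 16.4 CPM (log2 fold change -2.20 ± 0.33, adjusted p = 0.000579), and Gast, the gastrin gene, fell by 2.73. Aldh1a3, a marker of dedifferentiated β-cells, had 0, 3 and 2 counts in the control and 0, 7 and 2 counts in CPA18 and was not tested. A change in it was not detectable at this depth.

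Markers of other islet, exocrine and stromal cells were checked for the purity of the line. Of 27 listed, 21 had at least 1 read in a library, 6 had none listed, among them Ptprc of leukocytes and Ptf1a of acinar cells, and 2 were tested. Ttr, transthyretin, which α-cells and β-cells both make, fell from 1222, 1994 and 3299 CPM to 187, 299 and 218 CPM (log2 fold change -3.09 ± 0.24, adjusted p = 5.63e-06). Gcg, glucagon, had 48, 68.4 and 127 CPM in the control and 28.4, 41 and 67.2 CPM in CPA18 (log2 fold change -0.81 ± 0.21, adjusted p = 0.0147), but Gcg was not called without experiment 1, experiment 3, the control library of experiment 3, the CPA18 library of experiment 1 or the CPA18 library of experiment 3, where the log2 fold change of Gcg was -0.81 to -0.62 (adjusted p from 0.0528 to 0.156). The call was lost with library totals, where the log2 fold change of Gcg was -0.41 (adjusted p = 0.319). The other 19 stayed at or below 21.6 CPM in each library, and their summed level was 16.7 to 61.0 CPM in the control and 8.52 to 22 CPM in CPA18. Of the hormones of other islet cells, Sst had at most 11 counts in a library and Ppy at most 6. The macrophage markers Cd68 and Adgre1 reached 2.80 and 0.40 CPM.

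Some of the largest changes lay outside these lists. Cdsn, known as an adhesion protein of the skin, had 3, 2 and 3 counts in the control and 66, 535 and 138 counts in CPA18, or 6.26, 1.23 and 1.32 CPM and 62.5, 78.4 and 55.2 CPM (log2 fold change 5.03 ± 0.40, adjusted p = 5.66e-06). It lies on chromosome 17, 35543101 to 35557180 in GRCm38. Steap1, a membrane protein of the metalloreductase family, went from 2.09, 3.70 and 7.48 CPM to 103, 132 and 111 CPM (log2 fold change 4.70 ± 0.46, adjusted p = 2.74e-05). Cd209c, a C-type lectin gene, went from 18.8, 11.7 and 12.8 CPM to 350.4, 314 and 216 CPM (log2 fold change 4.36 ± 0.21, adjusted p = 3.55e-07). After 1 h of CPA, Cd209c was at 17.7, 18.9 and 15.2 CPM and Steap1 at 1.61, 3.29 and 15.2 CPM, far below CPA18. Unc5b, a netrin receptor, rose by 3.54 on the log2 scale and Adm2, a peptide of the calcitonin family, by 3.95. These 5 were called in each of the 9 fits and without the block, with adjusted p up to 0.0191 for Adm2. Cd74, the invariant chain of MHC class II, rested on 1, 1 and 1 counts in the control and 3, 94 and 15 counts in CPA18.

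Among the largest decreases, Dio1, which activates thyroid hormone, went from 50.1, 125 and 121 CPM to 3.79, 8.06 and 5.60 CPM (log2 fold change -4.02 ± 0.27, adjusted p = 2.09e-06). Slitrk6, a neuronal membrane protein, fell by 4.12 on the log2 scale and Vsnl1, a neuronal calcium sensor, also by 4.12. Tfrc, the transferrin receptor, had 263, 75.8 and 39.1 CPM in the control and 15.2, 11.6 and 5.60 CPM in CPA18 (log2 fold change -3.25 ± 0.33, adjusted p = 3.58e-05). It was lower in each experiment, and the control libraries themselves differed widely. C1qa, a chain of complement C1q best known from macrophages, fell from 125, 254 and 358 CPM to 7.58, 35 and 26.4 CPM (log2 fold change -3.35 ± 0.25, adjusted p = 3.63e-06), while the macrophage markers above were near 0 in every library. Arhgef15 had 10.4, 133 and 39.1 CPM in the control, with experiment 2 the highest, and 1.89, 10.7 and 5.20 CPM in CPA18.

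Ribosome footprints of the same 3 experiments gave a further readout. Their libraries held 168129 to 1083297 counted reads, and the control Ribo-seq library of experiment 2 has a description that names mRNA-seq. Of 7794 genes tested in Ribo-seq by the same fit, 881 (11.3%) were called higher in CPA18 and 954 (12.2%) lower. Of the 1079 genes higher in mRNA that were measured in both, 533 (49.4%) were also called higher in footprints and 0 lower. Of the 1197 genes lower in mRNA, 616 (51.5%) were called lower in footprints and 11 higher. With footprints scaled to library totals and the mRNA calls kept, 787 were higher in both, 392 lower in both and 31 opposite in direction. The shared genes were 60.5% of the footprints called higher and 64.6% of those called lower. In sign alone, footprints were higher for 93.7% of the higher and lower for 88.4% of the lower genes. Genes that moved the same way in both numbered 1149, and 937 without experiment 1 and 778 without experiment 2 in the footprint fit. Stress genes were also higher in footprints, with a footprint log2 fold change of 5.77 for Ddit3, 4.82 for Trib3, 4.43 for Ppp1r15a and 3.40 for Atf4. In β-cell genes the footprint value was -1.93 for Ins2, -1.96 for Pcsk2, -3.36 for Slc2a2 and -1.59 for Mafa, all called lower, with the highest adjusted p at 5.2e-13 for Mafa.

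**Figure D5:**
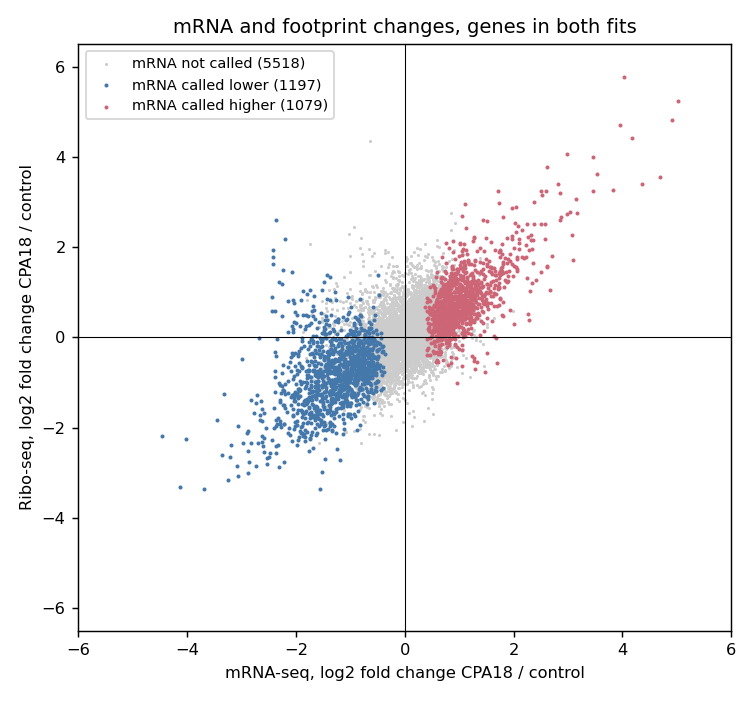
log2 fold change of CPA18 over control in mRNA-seq (x axis) and Ribo-seq (y axis) for the genes in both fits, coloured by the mRNA call (red higher, blue lower, grey not called). Most of the 1079 red genes lie above 0 in footprints and most of the 1197 blue genes below 0, with a scatter of blue genes above 0.

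By list, footprints of 16 of 22 UPR regulators were called higher and none lower, 46 of 81 lysosomal genes were called lower and 2 higher, and 20 of 30 genes of insulin and granules were lower and none higher. The scatter of both readouts also shows where they parted. Cpe, not called in mRNA, had a footprint log2 fold change of -0.98 (adjusted p = 3.8e-07), and Hspa8, the constitutive cytosolic HSP70, had -0.76 (adjusted p = 0.000116) with an mRNA change of -0.13. Ndufs1 had -0.89 (adjusted p = 0.00147) in footprints and 0.21 in mRNA. Ftl1, the ferritin light chain, was 1 of the 11 genes called in opposite directions, with -0.49 in mRNA (adjusted p = 0.0149) and 1.38 in footprints (adjusted p = 6e-12). Ftl1 kept its call without experiment 1 or the control library of experiment 1 or the CPA18 library of experiment 3 but not without any other experiment or library, where the log2 fold change of Ftl1 was -0.46 to -0.38 (adjusted p from 0.0678 to 0.207). The mRNA call was lost with library totals, where the log2 fold change of Ftl1 was -0.15 (adjusted p = 0.672). In DNA replication 2 of 47 genes were called higher in footprints and 8 lower, against 11.3% and 12.2% over all genes in Ribo-seq. In mRNA 10 of 52 were called higher and 1 lower, against 11.6% and 16% over all genes tested. The mRNA count higher was 5 without experiment 1 and 0 without the block. The difference between readouts was not tested gene by gene.

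Abundance and transcript length moved with the calls. Of the 30 most abundant control mRNAs by mean RPKM, picked after values were seen, 12 were called lower, 3 higher and 15 were not called. Ins2 went from 274050 to 53416 RPKM and Iapp from 44999 to 19841 RPKM. Secreted peptides were frequent among the lower ones, with log2 fold changes of -2.20 for Npy, -2.03 for Pdyn and -1.07 for Cck. The higher ones were Ubb, Rplp0 and Tpt1. In the lowest quartile of control level 4.58% of genes were called higher and 9.83% lower, and in the highest quartile 17.9% and 22.8%. Called-higher genes had a median transcript length of 2251 nt and called-lower genes 3749 nt, against 2985 nt over all genes tested. In the shortest quartile of transcripts 17.3% were called higher and 11.7% lower, and in the longest 3.52% and 24.7%, with medians of 0.15 and -0.55 on the log2 scale. With an offset for transcript length, 10.3% of the shortest and 8.42% of the longest quartile were called higher, and 1028 genes in all were called higher and 1558 lower. With this offset Ctsd, Cox4i1 and Hspa8 were called lower, at -0.38 for Ctsd (adjusted p = 0.0341), -0.57 for Cox4i1 (adjusted p = 0.00269) and -0.35 for Hspa8 (adjusted p = 0.0345). The part of length in the changes was not tested beyond this offset.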

How the data were processed

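The authors aligned reads of 15 to 40 nt with Bowtie2 to GRCm38.p6 RNA sequences, kept alignments of at least 95% identity past a quality filter of 30, and deposited for every transcript its length in nt, the read counts of 18 libraries and their RPM and RPKM values, scaled to all aligned reads. How reads that matched several transcripts were counted is not given in the sources used here. Deposited counts were summed over the transcripts of a gene through RefSeq, which knew 30232 of the 30741 accessions in the deposited version and 478 in another, and 31 were kept under their own name. RPKM levels were computed from the deposited lengths and counts. Library totals were 520960 to 4755030 in the mRNA-seq libraries compared.

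Genes with at least 1 read in each of 9 mRNA-seq libraries were tested with edgeR 4.0.16 (quasi-likelihood test, TMM scaling, R 4.3.3), with the experiment as a block, 4 residual degrees of freedom and Benjamini-Hochberg adjustment over 10125 genes at 0.05. The labels number replicates and the deposited counts number batches, and neither names experiments. Deviations of same-numbered libraries from their group means correlated with r of 0.182 to 0.673 (mean 0.509, 9 pairs). The numbers were therefore taken to pair the libraries and to stand for experiments. Ribo-seq counts were fitted in the same way over the 7794 of these genes with a read in every Ribo-seq library. The p-values measure the spread between cultures of 1 line. Each SE of a log2 fold change was its absolute value divided by the square root of the F statistic of the test. It therefore rests on the spread estimated from all 9 libraries and moderated across genes. The insulin share was compared by an exact permutation test that did not pair libraries by experiment.

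Members and gene lists were chosen with earlier results of these data known. Genes named were the 12 largest increases and the 12 largest decreases that passed the test, moved the same way in all 3 experiments and had a mean of at least 5 RPKM in the higher group, the key genes of each list, and the 2 largest called changes of each list in each direction. Others are said to be picked after values were seen. Some genes that the rule named are not reported here. Alternatives were library totals (also without Ins1 and Ins2), DESeq2 1.42.0, no filter, at least 10 counts in every library, no block, an offset for transcript length, control and CPA18 libraries alone, and leaving out each experiment or library. Totals without Ins1, Ins2 and Lars2, and the footprint alternatives, were added after seeing the data. Promoter windows came from RefSeq tables of GRCm38.p6 and figures from matplotlib 3.10.9.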

Additional observations from a re-analysis of the deposited data

How the results depend on the processing

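None of the 185 named genes that were tested had a call that turned its direction under the alternatives run, but the number of calls moved. Of 2797 changed genes, 1754 were called with at least 10 counts in every library, where fewer genes could be tested, and 269 without the experiment as a block. The 1177 higher genes became 1998 with library totals and 114 without the block. The 1620 lower genes became 757 with library totals, 998 with library totals without Ins1 and Ins2, 958 with at least 10 counts and 155 without the block. DESeq2 called 2220 genes (1007 higher and 1213 lower), and 2586 were called with an offset for transcript length. Leaving out an experiment or a library gave 1096 to 2224 changed genes, 495 to 1101 higher and 601 to 1273 lower. The counts that moved by over 1.5 times were 1397 without experiment 1 (624 higher and 773 lower), 1827 without experiment 2 (1006 lower), 1096 without the CPA18 library of experiment 2 (495 and 601) and 951 lower without the CPA18 library of experiment 1. The cause of these shifts was not tested.

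The drop in the insulin share was -14.2 to -8.80 percentage points when an experiment was left out (exact permutation p = 0.333, the smallest that 2 against 2 allow). Of the 185 named genes, 102 lost their call without the block and 8 with DESeq2. With library totals 17 lost it and 6 gained it, and with the length offset 9 lost it and 4 gained it. Leaving out an experiment or a library lost 11 to 36 of them. The median count of a tested gene was 20 in control libraries, so a small change of a gene below that level may have been missed.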

Other observations

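The 11 genes whose mRNA was called lower and whose footprints were called higher were Bicd2, Cdyl2, Cenpb, D430019H16Rik, Ftl1, Gm20594, Lrrc27, Pdik1l, Proser3, Tcf4 and Zfp513, listed here after their values were seen. Bicd2, Lrrc27, Pdik1l, Proser3 and Zfp513 had their highest control level in experiment 2, with 41.7, 363 and 43.1 CPM in the control for Bicd2, 66.7, 982 and 70.8 for Pdik1l, 25, 521 and 34.3 for Proser3 and 29.2, 309.6 and 34.3 for Zfp513. Lrrc27 had 22.9, 767 and 49.3 CPM in the control, 8.03, 85.6 and 72.9 CPM in CPA1 and 5.68, 82.3 and 27.2 CPM in CPA18, with a log2 fold change of -2.36 ± 0.55 in mRNA (adjusted p = 0.00867) and 2.59 in footprints (adjusted p = 0.00199). Gm20594 had 3354, 1012 and 874 CPM and 537, 233 and 160.0 CPM, with no overlap between groups, and footprints that were higher by 1.94 on the log2 scale (adjusted p = 1.5e-15). Tcf4, a basic helix-loop-helix factor, had 16.7, 5.55 and 2.64 CPM and 3.79, 2.34 and 1.60 CPM, with a footprint log2 fold change of 1.38 (adjusted p = 0.0231).

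Reads on Lars2 also differed among the libraries taken after 1 h of CPA, with 53.5, 38.1 and 8.27% in CPA1 experiments 1 to 3. In Ribo-seq the same gene took 0.0830 to 3.51% of the reads of a library. The mRNA-seq log2 fold change of Lars2 between CPA18 and control was -0.94 ± 0.73 and did not pass the test (adjusted p = 0.361). Whether all reads counted on Lars2 come from its mRNA was not tested.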
